A study of Rattus norvegicus with 18 samples.

Results

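The SLC25 family, the mitochondrial carriers, was followed in the colonic mucosa of rats treated with azoxymethane. Members were all probe sets whose platform annotation gave exactly 1 gene symbol beginning with Slc25a and a digit, which selected 58 probe sets of 40 genes out of 20826 probe sets of 14217 genes with 1 symbol. The samples were 18 Affymetrix arrays of scraped mucosa, 9 of distal and 9 of proximal colon, taken as pairs from 9 male rats of the Sprague Dawley strain (rats 1 to 8 and 10). Every rat, in both regions, had eaten modified AIN-93G diet for 10 days and had received azoxymethane, a colon carcinogen that alkylates DNA, at 15 mg per kg under the skin 6 h before it was killed. The study allocated its rats to groups that the labels used here do not identify, and all samples came from injected animals, so the only comparison made is between regions of the colon. A scraping can hold epithelium, immune cells and some deeper tissue, and in such bulk samples fewer cells of a type and less RNA per cell cannot be told apart.

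SLC25 carriers are small membrane proteins built from a repeated unit, and nearly all sit in the inner mitochondrial membrane. They exchange ADP, ATP, phosphate, carboxylic acids, amino acids, acylcarnitines, nucleotides, cofactors and iron between the mitochondrial matrix and the cytosol. Colonocytes depend heavily on mitochondria because they burn butyrate made by gut bacteria. The platform also held 2 probe sets that list Slc25a51 for more than 1 gene, and these were left out.

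Values below are log2 signals after quantile normalization, which puts all arrays on 1 distribution, and differences are distal minus proximal on that scale. Probe sets of different genes are not compared in level, because each probe set has its own response. Of the 40 genes, 37 passed the filter on low mean signal. The other 3 were Slc25a18, a glutamate carrier, Slc25a21, an oxodicarboxylate carrier, and Slc25a31, the ADP/ATP carrier of the testis. Their log2 signals stayed between 4.23 and 5.57 in all arrays, and they were not tested in the main fit. In the fit with no filter their limma adjusted p was 0.0872, 0.861 and 0.857, in that order. The deposited signals had trimmed means of 211.2 to 342.4 in distal arrays and 258.6 to 341.0 in proximal arrays. The mean log2 signal of 10 smooth muscle markers was 9.80 in the distal array of rat 3, 9.76 in the distal array of rat 7 and 12.21 in the proximal array of rat 3, against 6.49 to 8.54 in the other 15 arrays. The proximal arrays of rats 3 and 6 also stood apart. The labels do not mark them, and they were picked from their signals. They held both of the lowest proximal values for 6 of the 37 members (16.2%) and for 13.6% of all genes tested. They held both of the highest for 3 members (8.11%) and for 8.85% of all genes.

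Of the 37 genes tested, 8 had a regional difference with an adjusted p below 0.05 in limma, a linear model fitted over the whole array. Slc25a37, Slc25a36 and Slc25a13 were higher in distal colon. Slc25a24, Slc25a10, Slc25a16, Slc25a23 and Slc25a1 were lower in distal colon. That is 21.6% of the tested members, against 30.8% of the 11407 genes tested. By direction it is 8.11% against 16.2% of all genes for higher in distal colon, and 13.5% against 14.5% for lower in distal colon. With the deposited scaling kept, 2 of the 37 members were higher and 5 lower in distal colon, against 3.94% and 13.6% of all genes (17.6% together). The share of all genes higher in distal colon was thus below the 16.2% above, while Slc25a36 and Slc25a37 still passed. The largest member difference was 0.60 in size on the log2 scale, and 2 of 37 members reached 1.5-fold, against 10.3% of all genes. The median size of the difference was 0.13 for members and 0.19 for all genes, and the median signed difference was 0.02 and 0.01. With the deposited scaling the median of all genes lay at -0.10, and that of the members at -0.08.

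Other settings gave these counts, out of 37 members unless stated, and shares of all genes. With rat as a block, 4 members were higher and 7 lower in distal colon, against 19.5% and 17.4% of all genes (36.8% together). With the deposited scaling and the block these were 2 and 5 members, against 4.96% and 15.6% (20.6% together), and with median centring 3 and 4 members, against 15.5% and 10.8% (26.3% together). With the mean of a gene's probe sets they were 3 and 5, against 15.8% and 13.5% (29.2% together). Leaving out the proximal arrays of rats 3 and 6 gave 3 and 5, against 14.9% and 14.6% (29.5% together), and leaving out the 3 arrays with most smooth muscle signal gave 2 and 5, against 15.1% and 15.5% (30.6% together). With no filter on low signal 2 of 40 members were higher and 5 lower, against 12.5% and 11.5% (24% together). With 50% of probe sets left out 4 and 5 of 31 passed, against 19.9% and 16.5% (36.4% together), and without the intensity trend 2 and 5 of 37, against 15.6% and 14.1% (29.7% together). In the 9 fits that each left out 1 rat, 2 to 4 members were higher and 4 to 6 lower, against 13.9% to 16.5% and 12.5% to 15.6% of all genes.

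**Figure D1:**
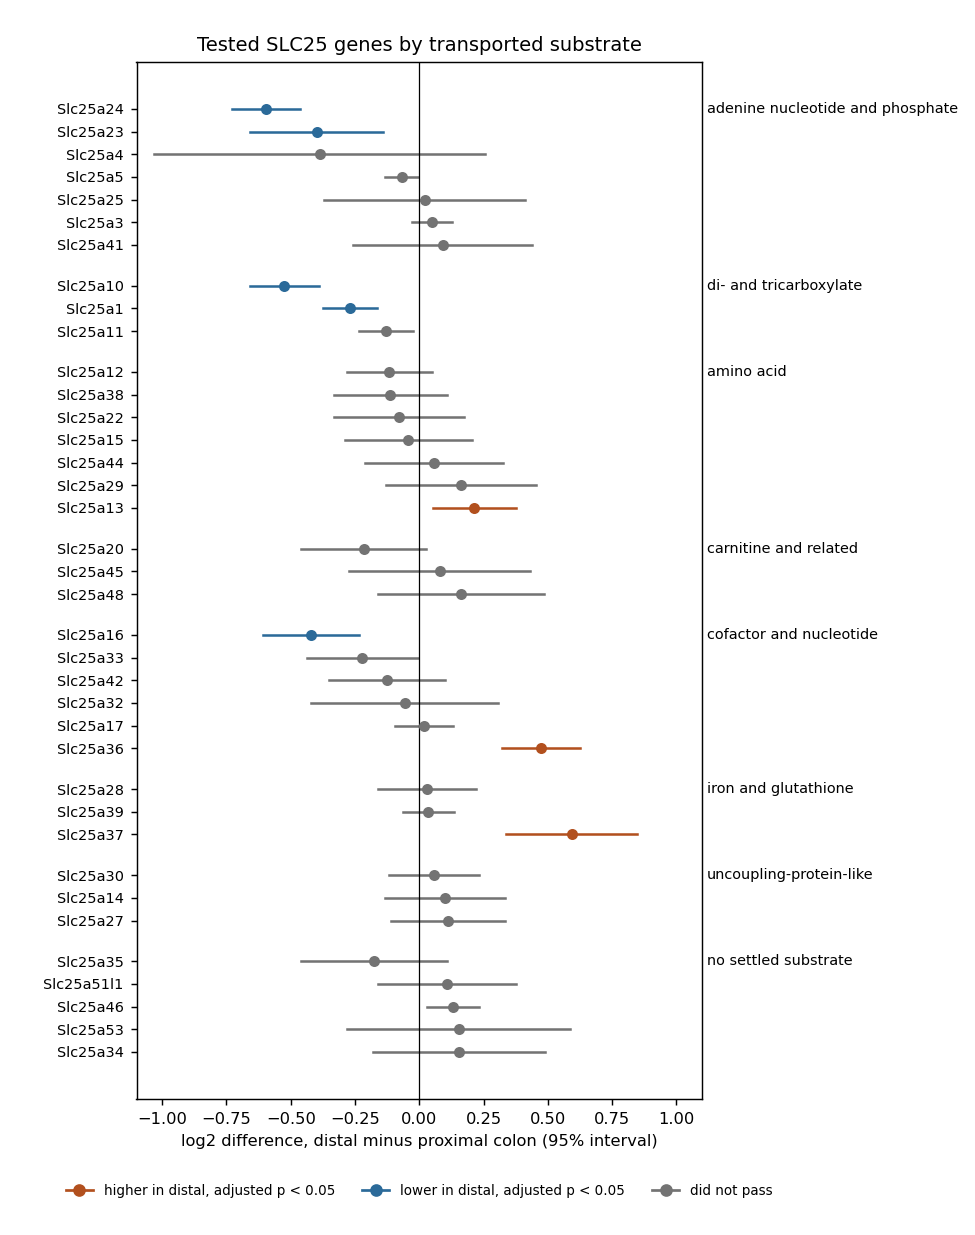
Difference between distal and proximal colon (log2, x axis) with its 95% interval for each of the 37 tested SLC25 genes, grouped by substrate. Orange marks genes higher and blue genes lower in distal colon at an adjusted p below 0.05, and grey genes that did not pass. Slc25a24 lies farthest left at -0.60 and Slc25a37 farthest right at 0.59. Slc25a4 has the widest interval.

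Counts by substrate group and in the later gene lists rest on few genes. Over all genes tested, 16.2% were higher and 14.5% lower in distal colon. Of the 7 tested carriers of adenine nucleotides and phosphate, 2 were lower in distal colon and 0 higher. Both belong to the calcium-regulated carriers of ATP-magnesium, and the third of that kind, Slc25a25, did not pass. Slc25a24, a calcium-regulated carrier that trades ATP-magnesium for phosphate and so sets the adenine nucleotide pool of the matrix, had log2 signals of 10.93 to 11.36 in distal colon (median 11.18) and 11.65 to 12.06 in proximal colon (median 11.75). The 2 regions did not overlap, and every rat was lower in distal colon. The difference was -0.60 ± 0.06 (SE, n = 9 each), which is 1.51-fold lower in distal colon (limma adjusted p = 8.24e-07). Its annotated gene overlaps that of Slc25a54 in the rat genome table, and signal from Slc25a54 was not tested. Slc25a23, a second calcium-regulated ATP-magnesium carrier, had log2 signals of 6.86 to 7.56 in distal colon (median 7.27) and 7.21 to 8.14 in proximal colon (median 7.71). The regions overlapped, and 7 of 9 rats were lower in distal colon. It was 1.32-fold lower there (-0.40 ± 0.12, limma adjusted p = 0.0209). This call was lost without rat 3 (adjusted p = 0.0571), rat 5 (0.0621) or rat 6 (0.0564). It was also lost when the proximal arrays of rats 3 and 6 (0.0537) or the 3 arrays with most smooth muscle signal (0.0881) were left out.

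Slc25a25 had log2 signals of 8.00 to 9.03 in distal colon (median 8.69) and 7.71 to 9.13 in proximal colon (median 8.77). Its difference was 0.02 ± 0.19 (limma adjusted p = 0.952). Its lowest 2 proximal signals were 7.71 in rat 3 and 7.81 in rat 6, while the remaining proximal arrays had 8.38 to 9.13. Without those 2 arrays the difference was -0.20 (adjusted p = 0.337). Slc25a41, which resembles these carriers but lacks the calcium-binding part, had a difference of 0.09 ± 0.17 (limma adjusted p = 0.731) at low signal, 5.37 to 6.25 in distal colon (median 5.73) and 5.10 to 6.18 in proximal colon (median 5.68).

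Slc25a5, the ADP/ATP carrier of most epithelial and dividing cells, had log2 signals of 13.06 to 13.25 in distal colon (median 13.19) and 13.14 to 13.31 in proximal colon (median 13.24). After quantile normalization every array thus lay within a narrow band, and the difference was -0.07 ± 0.03 (95% interval -0.13 to -0.00, limma adjusted p = 0.113). With the deposited scaling it was -0.20 (limma adjusted p = 0.113). The rat gene table lists 9 pseudogenes and 1 like gene of Slc25a5, whose part in its signal was not tested. Among the 8 genes that passed, it lists 1 pseudogene and 1 like gene of Slc25a36 and 1 pseudogene of Slc25a13, likewise not tested, and 0 of the others. Slc25a5 passed when the proximal arrays of rats 3 and 6 were left out (-0.09, adjusted p = 0.0350). Slc25a3, which brings in phosphate for ATP synthase, had median log2 signals of 13.05 in distal colon and 13.04 in proximal colon, with a difference of 0.05 ± 0.04 (limma adjusted p = 0.342). Its sign turned with the deposited scaling (-0.09). With quantile normalization both intervals lay far inside 1.5-fold. That step gives equal ranks equal signals, and Slc25a3 had 12.94 in the proximal arrays of rats 2 and 3 alike. The part of the normalization in these narrow intervals was not tested.

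Slc25a4, the ADP/ATP carrier best known from heart and skeletal muscle, varied far more between arrays. Its log2 signal was 7.45 to 8.80 in distal colon (median 7.82) and 7.83 to 10.69 in proximal colon (median 8.03). The top value, 10.69, came from the proximal array of rat 3, while the other proximal arrays ran from 7.83 to 8.62. That array also had the highest smooth muscle signal, 12.21, and the distal arrays of rats 7 and 3, next in smooth muscle signal, had Slc25a4 at 8.80 and 8.44, the highest in distal colon. Other arrays did not follow this order. The proximal array of rat 6 had Slc25a4 at 8.62 with a smooth muscle signal of 7.18, and the proximal array of rat 10 had 7.95 with 8.54. The difference between the regions was -0.39 ± 0.31 (limma adjusted p = 0.389), -0.01 once the proximal arrays of rats 3 and 6 were left out (adjusted p = 0.967), and -0.28 once the 3 arrays with most smooth muscle signal were left out (adjusted p = 0.108). None of the 10 smooth muscle markers passed between the regions, and their part in the Slc25a4 values was not tested.

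**Figure D2:**
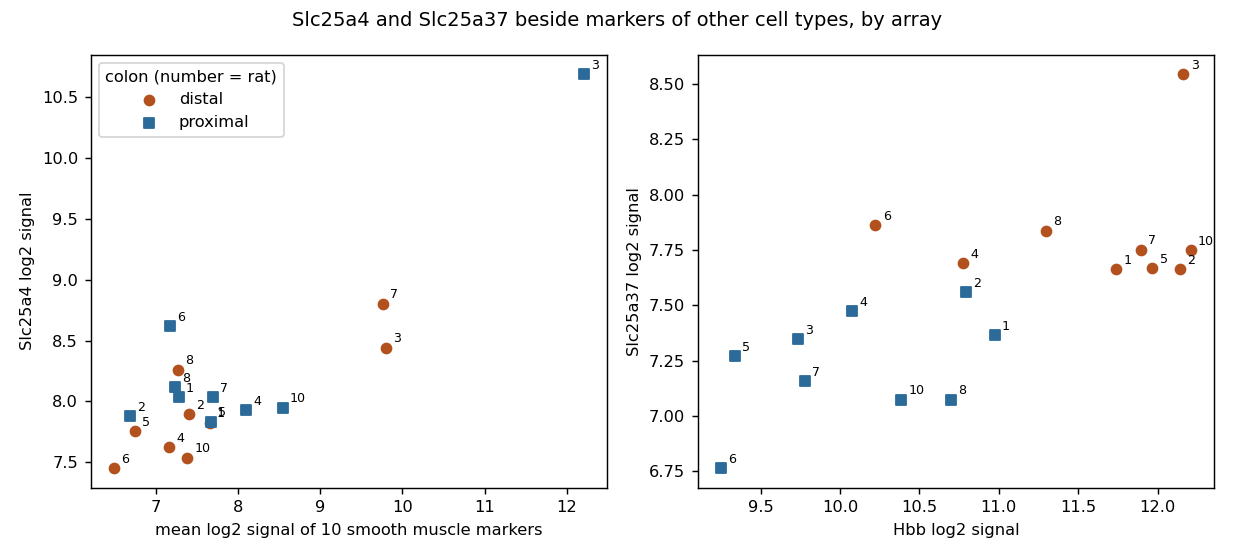
Left, Slc25a4 log2 signal against the mean log2 signal of 10 smooth muscle markers; right, Slc25a37 log2 signal against that of Hbb, a haemoglobin chain. Each point is 1 array with its rat number, orange circles for distal and blue squares for proximal colon. The proximal array of rat 3 stands alone at the upper right of the left panel (12.21 and 10.69). In the right panel all distal arrays lie above all proximal arrays in Slc25a37.

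Carriers of di- and tricarboxylates came next, and 2 of the 3 tested were lower in distal colon, against 14.5% of all genes. Slc25a10, the dicarboxylate carrier that exchanges malate and succinate for phosphate, had log2 signals of 11.16 to 11.51 in distal colon (median 11.36) and 11.50 to 12.06 in proximal colon (median 11.91). The ranges met at their ends, and all 9 rats were lower in distal colon. It was 1.44-fold lower there (-0.52 ± 0.07, SE, limma adjusted p = 5.39e-06). A second Slc25a10 probe set gave -0.55 (adjusted p = 0.000386, lower in distal colon in 8 of 9 rats). Slc25a1, the citrate carrier, exports citrate, the carbon source of fatty acid and sterol synthesis. Its log2 signals were 9.96 to 10.22 in distal colon (median 10.10) and 10.19 to 10.48 in proximal colon (median 10.38), lower in distal colon in 9 of 9 rats. The difference was -0.27 ± 0.05, or 1.2-fold lower (limma adjusted p = 0.000492), but it did not pass when arrays were centred on their medians (adjusted p = 0.0645). Slc25a11, the oxoglutarate carrier of the malate-aspartate shuttle, had a difference of -0.13 ± 0.05 (95% interval -0.23 to -0.03, limma adjusted p = 0.0611). It passed when the 3 arrays with most smooth muscle signal were left out (adjusted p = 0.0320), without rat 1 (0.0287) and without rat 7 (0.0360).

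The start regions of Slc25a24 and Slc25a10, the members with the smallest adjusted p, are printed to show their motifs, as RefSeq gives them for rat build GRCr8, from 250 bases before to 50 after the gene's start. Slc25a24 is at chr2:199449175-199449474, plus strand, and Slc25a10 at chr10:106264146-106264445, plus strand. Capitals mark the Sp1 box GGGCGG, the CCAAT box and the other motifs searched on both strands, which were the E-box CACGTG, the TATA box TATAAA and the palindromic core of the NRF1 site.
Slc25a24: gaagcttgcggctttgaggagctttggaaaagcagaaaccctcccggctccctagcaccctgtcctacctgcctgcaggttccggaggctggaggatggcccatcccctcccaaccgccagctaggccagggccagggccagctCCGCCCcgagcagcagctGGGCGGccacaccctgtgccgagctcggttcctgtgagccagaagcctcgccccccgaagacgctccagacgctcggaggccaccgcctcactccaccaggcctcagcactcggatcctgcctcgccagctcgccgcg
Slc25a10: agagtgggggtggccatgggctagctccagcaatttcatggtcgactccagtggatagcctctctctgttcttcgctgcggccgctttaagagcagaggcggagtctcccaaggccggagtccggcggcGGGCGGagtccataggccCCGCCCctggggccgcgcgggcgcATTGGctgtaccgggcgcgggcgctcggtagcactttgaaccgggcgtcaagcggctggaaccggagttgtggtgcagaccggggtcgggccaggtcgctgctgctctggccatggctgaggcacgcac
Both windows held the Sp1 box on each strand, and that of Slc25a10 also held 1 CCAAT box. Over the 35 start regions available for 34 of the member genes, 25 (71.4%) held the Sp1 box, against 33.1% of 33469 rat start regions and 41.8% of those of protein-coding genes. Slc25a36 and Slc25a37, both higher in distal colon, had no start region available. The CCAAT box was in 54.3% of member regions and 37.5% of all, the E-box in 8.57% and 6.42%, and the TATA box in 5.71% and 14.2%. The NRF1 core was in 0 member regions and 0.852% of all. Member regions had a median GC content of 60.3%, against 51.7% of all start regions and 55.0% of protein-coding ones. Any relation of G and C content to the Sp1 box count was not tested. The motifs are a description of letters only.

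**Figure D3:**
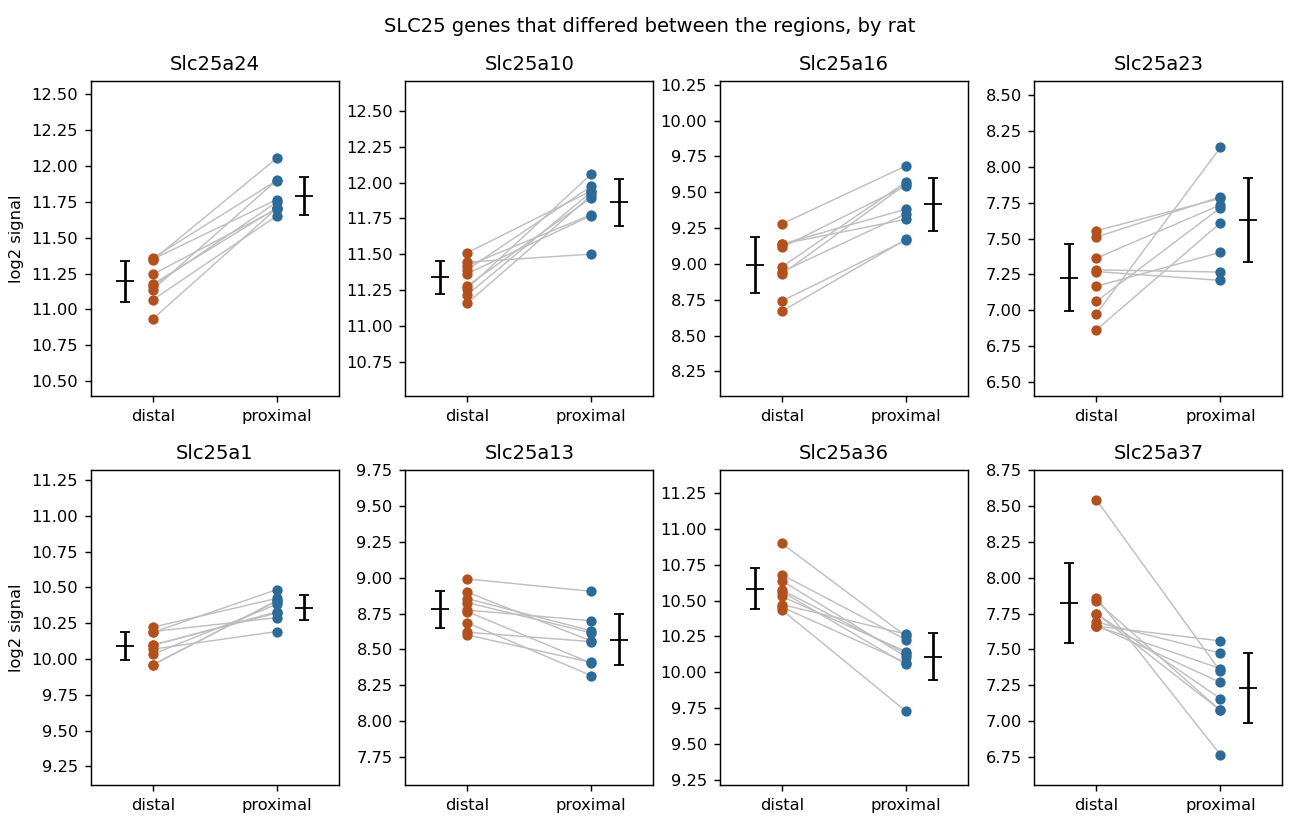
Log2 signals (y axis, each panel spanning the same height) of the 8 SLC25 genes that passed, in distal (orange) and proximal (blue) colon. Points are arrays, grey lines join the arrays of 1 rat, and black bars give the mean and SD of 9 arrays. Slc25a24, Slc25a36 and Slc25a37 show no overlap between the regions. Slc25a37 has 1 distal array, of rat 3, at 8.54.

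Amino acid carriers mostly did not pass, with 1 of 7 higher in distal colon. Slc25a13, called citrin, is a calcium-sensing exchanger of aspartate for glutamate in the malate-aspartate shuttle. Its log2 signals were 8.60 to 8.99 in distal colon (median 8.77) and 8.32 to 8.91 in proximal colon (median 8.56). The regions overlapped widely, yet all 9 rats were higher in distal colon. The difference was 0.21 ± 0.08 (1.16-fold, limma adjusted p = 0.0474, 0.0121 with rat as a block). The call was lost with the deposited scaling (adjusted p = 0.500), with no filter (0.0595), without the intensity trend (0.0503) and when its probe sets were averaged (0.220). It was also lost when the 3 arrays with most smooth muscle signal were left out (0.0879) and in 8 of 9 fits that left out 1 rat (0.0539 to 0.108, with rat 6 the exception). The second Slc25a13 probe set gave 0.06 (adjusted p = 0.745). Slc25a12, called aralar, the other aspartate/glutamate exchanger, had a difference of -0.12 ± 0.08 (limma adjusted p = 0.302).

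Slc25a29, a carrier of basic amino acids, had log2 signals of 9.85 to 10.41 in distal colon (median 10.10) and 9.10 to 10.33 in proximal colon (median 10.07). The low end in proximal colon came from rats 3 and 6, at 9.10 and 9.40, while the remaining proximal arrays had 10.00 to 10.33. Its difference was 0.16 ± 0.14 (limma adjusted p = 0.43), and -0.04 without those 2 arrays. Slc25a34, a carrier with no settled substrate, showed the same 2 low arrays, at 6.99 and 7.64 against 8.14 to 8.45, and its difference of 0.15 ± 0.16 (limma adjusted p = 0.522) became -0.07 without them. Slc25a22, a glutamate carrier (-0.08 ± 0.12), Slc25a38, the glycine carrier needed for haem synthesis (-0.11 ± 0.11), and Slc25a44, a branched-chain amino acid carrier (0.06 ± 0.13), did not pass (limma adjusted p = 0.676, 0.475 and 0.78).

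Slc25a15, the ornithine carrier of the urea cycle, had 6 probe sets, of which 5 were tested and 0 passed (26.5% of all probe sets passed), with differences from -0.11 to 0.15. Its representative probe set had log2 signals of 8.09 to 8.55 in distal colon (median 8.29) and 7.94 to 8.91 in proximal colon (median 8.30) (-0.04 ± 0.12, limma adjusted p = 0.83). The rats spread widely on another of them. There rat 1 had 6.17 in distal and 6.90 in proximal colon, and rat 5 had 6.32 and 6.84. The other rats ran from 7.41 to 8.15 in distal and from 7.57 to 8.14 in proximal colon. Both regions of rats 1 and 5 were thus low together. On another tested probe set they had the lowest distal signals, 6.62 in rat 1 and 6.86 in rat 5 against 7.14 to 8.05 in the other rats. There their proximal signals were 6.85 and 7.17, and the other rats had 6.90 to 7.57. On the representative probe set their proximal signals, 8.91 and 8.82, were the highest. On a further probe set the same rats were not low, with 7.88 in distal and 8.04 in proximal colon of rat 1 and 7.82 and 8.24 in rat 5. These rats were picked out after their values were seen, and the labels do not say how they differ from the others.

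**Figure D4:**
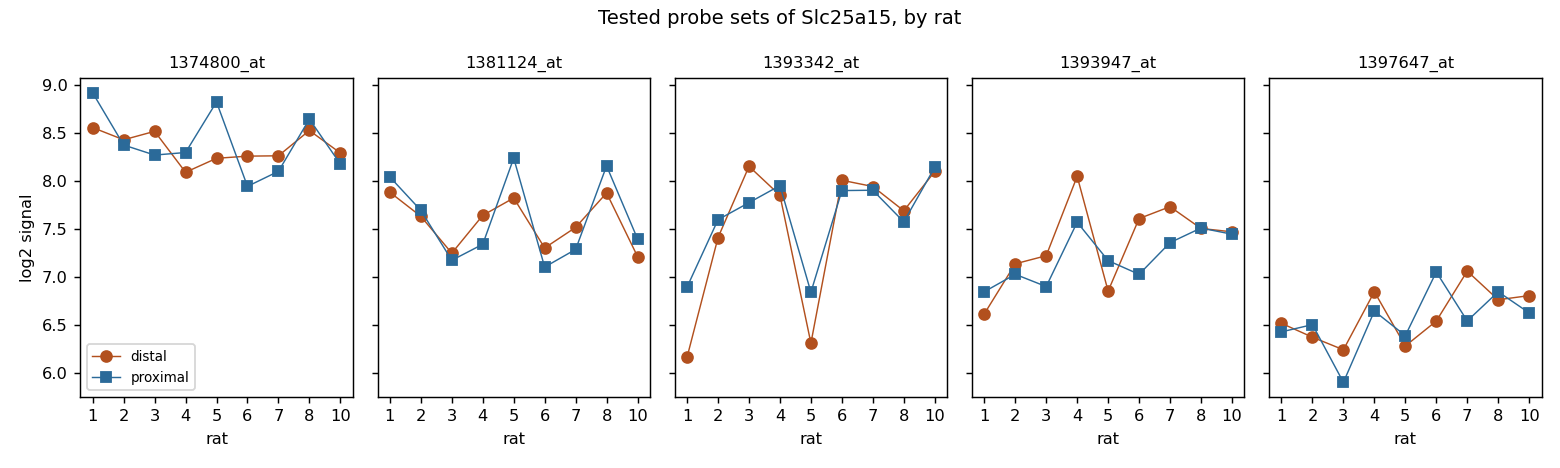
Log2 signal (y axis) of the 5 tested Slc25a15 probe sets by rat (x axis), orange circles for distal and blue squares for proximal colon. In the middle panel both arrays of rats 1 and 5 lie between 6.17 and 6.90, below all arrays of the other rats, while in the panel to its left they lie between 7.82 and 8.24.

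Carnitine and related carriers had 0 of 3 members past the threshold. Slc25a20 moves acylcarnitines into the matrix, the entry step of long-chain fatty acid oxidation. Its log2 signals were 8.21 to 9.13 in distal colon (median 8.78) and 8.68 to 9.24 in proximal colon (median 9.04), and all 9 rats were lower in distal colon, with a difference of -0.22 ± 0.12 (95% interval -0.46 to 0.03, limma adjusted p = 0.185). It passed when rat was a block (adjusted p = 0.0405). Slc25a45, which carries methylated amino acids, gave 0.08 ± 0.17 (limma adjusted p = 0.772). Slc25a48, a choline carrier, had 2 probe sets of low signal that disagreed. The representative one gave 0.16 ± 0.15 (limma adjusted p = 0.483), while the other gave -0.60 (adjusted p = 0.0420, lower in distal colon in 7 of 9 rats, and 0.0833 with rat as a block). It also missed the threshold when the proximal arrays of rats 3 and 6 (0.120) or the 3 arrays with most smooth muscle signal (0.0712) were left out, with median centring (0.0547) and with no filter (0.0549).

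Cofactor and nucleotide carriers differed in both directions, with 1 of 6 higher and 1 lower in distal colon. Slc25a36 carries pyrimidine nucleotides, which mitochondria need to make their own DNA and RNA. Its log2 signals were 10.44 to 10.90 in distal colon (median 10.56) and 9.73 to 10.27 in proximal colon (median 10.13). The regions did not overlap, and all 9 rats were higher in distal colon. It was 1.39-fold higher there (0.47 ± 0.07, SE, limma adjusted p = 5.79e-05), and a second probe set gave 0.45 (adjusted p = 0.0145, and 0.144 with the deposited scaling). The related Slc25a33, also a pyrimidine nucleotide carrier, had a difference of -0.22 ± 0.10 (limma adjusted p = 0.126, lower in distal colon in 8 of 9 rats), and passed with rat as a block (adjusted p = 0.0400). The difference between these 2 carriers was not tested.

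Slc25a16, a carrier linked to coenzyme A, had log2 signals of 8.67 to 9.28 in distal colon (median 8.98) and 9.17 to 9.68 in proximal colon (median 9.38). The ranges overlapped at their ends, and all 9 rats were lower in distal colon. It was 1.34-fold lower there (-0.42 ± 0.09, limma adjusted p = 0.0015). Slc25a42, the coenzyme A carrier proper, had a difference of -0.13 ± 0.11 and Slc25a17, its relative in the peroxisome, one of 0.02 ± 0.05 (limma adjusted p = 0.428 and 0.825). Slc25a32, which carries folate or FAD, gave -0.06 ± 0.17 at low signal (limma adjusted p = 0.844).

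Among iron and glutathione carriers, 1 of 3 was higher in distal colon. Slc25a37, or mitoferrin 1, imports iron for haem and is best known from developing red cells. Its log2 signals were 7.66 to 8.54 in distal colon (median 7.75) and 6.76 to 7.56 in proximal colon (median 7.27). The regions did not overlap, and all 9 rats were higher in distal colon. The distal array of rat 3 had 8.54, and the other distal arrays lay between 7.66 and 7.86. It was 1.51-fold higher in distal colon (0.59 ± 0.12, SE, limma adjusted p = 0.00115). Its relative Slc25a28, mitoferrin 2, which serves other cells, had a difference of 0.03 ± 0.09 (limma adjusted p = 0.852). Slc25a39, a glutathione carrier, gave 0.03 ± 0.05 (limma adjusted p = 0.644). The deposited scaling gave it the opposite sign (-0.08), and the gene table lists 8 pseudogenes of it.

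Of 4 red cell markers listed, 3 were on the array, and 2 of these were higher in distal colon, as Slc25a37 was. Hbb, a haemoglobin chain, had log2 signals of 10.22 to 12.21 in distal colon (median 11.90) and 9.25 to 10.97 in proximal colon (median 10.08) and was 2.8-fold higher in distal colon (limma adjusted p = 0.000596). Alas2, the haem synthesis enzyme of red cells, was 1.78-fold higher (limma adjusted p = 0.012). Slc4a1, the red cell anion exchanger, did not pass (-0.29, limma adjusted p = 0.311), and the mean log2 signal of the 3 markers was 7.42 to 8.57 in distal and 6.94 to 8.00 in proximal colon. The lowest marker signal was 4.54, for Slc4a1 in distal colon. Hbb overlapped between the regions and Slc25a37 did not. Within distal colon, Hbb and Slc25a37 did not rank the arrays alike. The array of rat 6 had the lowest Hbb there, 10.22, with Slc25a37 at 7.86. That of rat 3 had Hbb at 12.16 with the highest Slc25a37, 8.54. The part of the red cell markers in the Slc25a37 difference was not tested. In the list of haem and iron-sulphur enzymes, 3 of 10 tested were higher in distal colon and 0 lower, namely Alas2, Hmox1 and Fech. Alas2 is also 1 of the red cell markers above, so the 2 lists are not separate. With the deposited scaling 1 of the 10 was higher, as were 2 of the 3 red cell markers. Fech, which inserts iron into haem in the matrix, was 1.32-fold higher, with log2 signals of 9.07 to 9.43 in distal colon (median 9.29) and 8.77 to 8.98 in proximal colon (median 8.92) (limma adjusted p = 4.79e-05, and 0.0868 with the deposited scaling).

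Carriers that resemble uncoupling proteins, named for a leak of protons across the inner membrane, had 0 of 3 past the threshold. Slc25a30 had probe sets that disagreed. The representative one had log2 signals of 8.13 to 8.68 in distal colon (median 8.41) and 8.11 to 8.58 in proximal colon (median 8.41) (0.06 ± 0.08, limma adjusted p = 0.663), and -0.03 with the deposited scaling. The weaker one had 6.76 to 7.44 in distal and 6.19 to 6.93 in proximal colon, higher in distal colon in 9 of 9 rats, with a difference of 0.50 (adjusted p = 0.00369, and 0.120 with the deposited scaling). Slc25a14 (0.10 ± 0.11) and Slc25a27 (0.11 ± 0.11), both known from brain, did not pass (limma adjusted p = 0.558 and 0.483). Ucp2, an uncoupling protein of the same family under another name and thus not a member by symbol, was 1.15-fold higher in distal colon (limma adjusted p = 0.0422). That call was lost with the deposited scaling (adjusted p = 0.699), with median centring (0.0943), with no filter (0.0557) and with rat as a block (0.0713). It was also lost when the proximal arrays of rats 3 and 6 (0.106) or the 3 arrays with most smooth muscle signal (0.111) were left out.

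Carriers with no settled substrate had 0 of 5 past the threshold. Slc25a46, an outer membrane protein that shapes mitochondria, had log2 signals of 10.61 to 10.96 in distal colon (median 10.73) and 10.52 to 10.73 in proximal colon (median 10.61), a difference of 0.13 ± 0.05 and a limma adjusted p = 0.0514, and passed with rat as a block (0.0431). Its second probe set had the opposite sign, at -0.31 (adjusted p = 0.0554, with 9 of 9 rats below their proximal value), and it passed as lower in distal colon with rat as a block (adjusted p = 0.00353). Slc25a35 (-0.18 ± 0.14), Slc25a53 (0.15 ± 0.21) and Slc25a51l1 (0.11 ± 0.13), named for its likeness to the NAD carrier, did not pass (limma adjusted p = 0.372, 0.632 and 0.576). Of the 29 tested members that did not pass, 27 had a 95% interval that stayed within 1.5-fold in either direction. The exceptions were Slc25a4 (95% interval -1.03 to 0.26) and Slc25a53 (95% interval -0.28 to 0.59). Signs of 11 of these 29 turned under the deposited scaling.

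**Figure D5:**
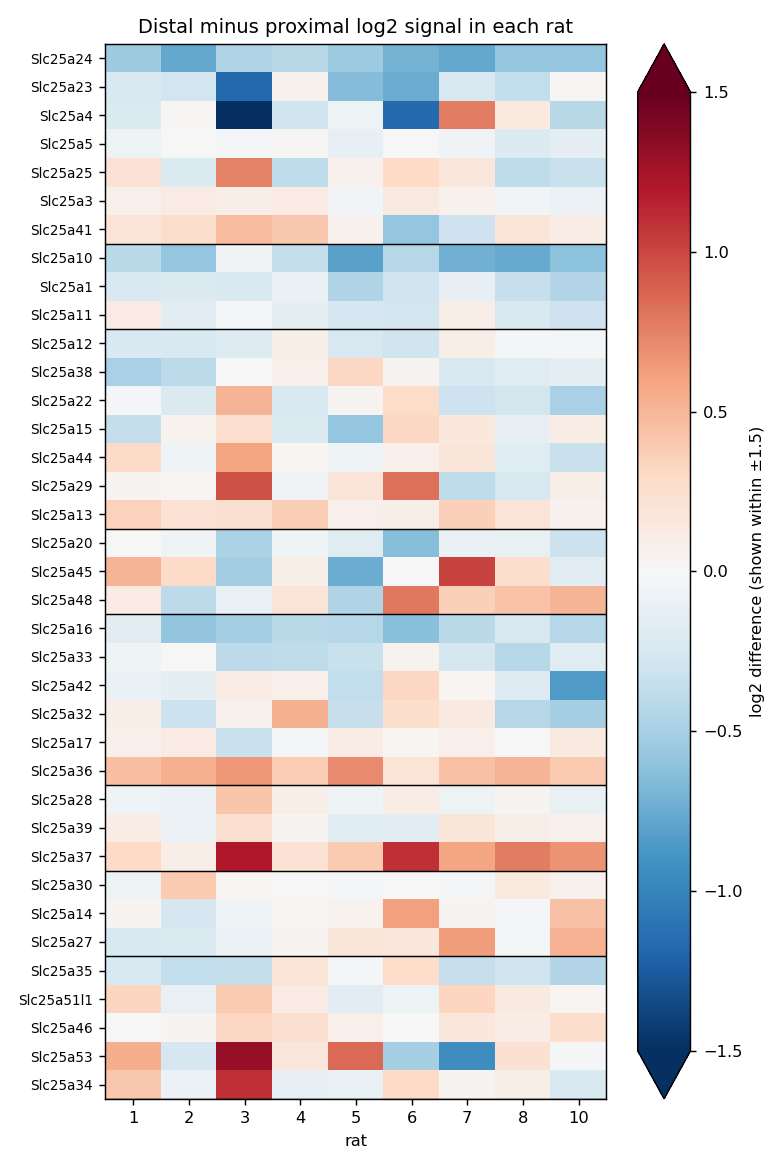
Distal minus proximal log2 signal in each of the 9 rats (x axis) for the 37 tested SLC25 genes (rows, with black lines between substrate groups in the same order as in the plot of differences). Red is higher and blue lower in distal colon, with colours ending at 1.5 on the log2 scale. Slc25a24, Slc25a10 and Slc25a16 are blue and Slc25a36 and Slc25a37 red in every rat. The darkest cell is that of Slc25a4 in rat 3.

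Of the 37 members, 3 had regions that did not overlap, Slc25a24, Slc25a36 and Slc25a37, against 6.89% of all genes. Of these 2 lay above and 1 below proximal colon, against 3.22% and 3.67%. All 9 rats shared a direction for 8 members, against 21.5% of all genes. Among the 9 genes with more than 1 tested probe set, all probe sets had the same call for 6, and Slc25a13, Slc25a30 and Slc25a48 were the exceptions. Slc25a46 is counted among the 6 because neither of its probe sets passed, though their signs were opposite (0.13 and -0.31). With rat as a block both passed, in opposite directions. Signals of the 49 tested member probe sets were also set against each other between the distal and proximal arrays of the rats. Pearson's r had a median of 0.43 over the probe sets and ran from -0.70 to 0.96. The highest was that of the Slc25a15 probe set on which rats 1 and 5 lay apart, and it was 0.71 over the other rats. By exact permutation of the pairings (n = 9 rats, two-sided), 13 of 49 had an unadjusted p below 0.05 by Pearson's r and 9 by Spearman's rho. After Benjamini-Hochberg adjustment over the 49 relations, 0 passed by either measure. These counts hold relations of either sign. The same was not computed for all probe sets, so nothing particular to SLC25 genes is read from them. Slc25a51l1 had r = 0.80 (exact permutation p = 0.00961, adjusted p = 0.118) and rho = 0.82 (exact p = 0.0108, adjusted p = 0.240), and r = 0.68 without the 2 rats farthest from the proximal median. The representative probe set of Slc25a44 had r = 0.77 (exact permutation p = 0.0147, adjusted p = 0.125) and rho = 0.85 (exact p = 0.00607, adjusted p = 0.240), and r = 0.81 without such rats. These 2 genes were singled out after their values were seen.

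Enzymes that work beside the carriers give the setting. Of 11 enzymes of the malate-aspartate shuttle, the glycerol phosphate shuttle and the use of exported citrate, 5 were higher and 2 lower in distal colon (3 and 3 with the deposited scaling). Acly, which splits exported citrate into acetyl-CoA, was 1.42-fold higher in distal colon, with log2 signals of 11.52 to 11.84 in distal colon (median 11.62) and 10.78 to 11.37 in proximal colon (median 11.16) that did not overlap (limma adjusted p = 3.41e-05). Slc25a1, the carrier that exports that citrate, was lower there. Gpd1 (2-fold) and Gpd2 (1.55-fold) of the glycerol phosphate shuttle were higher too (limma adjusted p = 5.69e-06 and 9.95e-06). Me1, which makes NADPH from malate, was 2.99-fold lower in distal colon, with log2 signals of 7.13 to 8.19 in distal colon (median 8.02) and 8.83 to 9.59 in proximal colon (median 9.49) (limma adjusted p = 4.59e-08).

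Carnitine pathway enzymes had 5 of 11 lower in distal colon and 0 higher, with a median difference of -0.22. Crot (1.53-fold), a peroxisomal acyltransferase, and Acadl (1.39-fold), Hadhb (1.39-fold) and Acadm (1.32-fold), enzymes of beta-oxidation, led (limma adjusted p = 0.000804, 5.31e-07, 5.49e-06 and 1.17e-05). In the ornithine and urea cycle list, 3 of 7 were lower and 1 higher in distal colon. Ass1 was 2.04-fold and Nags 1.4-fold lower (limma adjusted p = 0.00693 and 0.00345), both enzymes of arginine or urea synthesis. Oat, which converts ornithine, was 1.34-fold lower (limma adjusted p = 0.025), but not when the proximal arrays of rats 3 and 6 (0.0889) or the 3 arrays with most smooth muscle signal (0.0964) were left out, nor with median centring (0.0554). Arg1, which makes ornithine, was 1.64-fold higher (limma adjusted p = 0.000313).

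Other transporters of the inner membrane had 4 of 19 higher and 2 lower in distal colon (1 and 2 with the deposited scaling). This list was not kept free of uncoupling proteins, such as Ucp1, which was not tested. It is thus not wholly separate from the SLC25 family. Sfxn5, of the sideroflexins, was 1.55-fold higher and Mcu, the pore of the calcium uniporter, 1.25-fold lower (limma adjusted p = 0.00248 and 0.00191). Outer membrane and content markers had 1 of 14 higher and 1 lower, with a median difference of -0.02. Cs, the citrate synthase of the matrix, was 1.4-fold higher in distal colon (limma adjusted p = 7.51e-07), and Tomm22, an import receptor, was 1.23-fold lower (limma adjusted p = 0.000433).

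Markers of epithelial types also differed between the regions. All 6 enteroendocrine markers were lower in distal colon, with a mean log2 signal of 6.84 to 7.94 against 8.24 to 9.34 in proximal colon. Of 7 absorptive colonocyte markers, 4 were lower and 1 higher in distal colon, with a mean of 10.96 to 11.56 against 11.05 to 12.13. Goblet cell markers had 2 of 6 lower and 1 higher, with a mean of 11.73 to 12.22 against 12.23 to 12.76. Leukocyte markers had 0 of 7 past the threshold, neuron and glia markers 0 of 2 and adipocyte markers 1 of 4 lower. The part of these markers in the SLC25 differences was not tested.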

How the data were processed

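The authors deposited signal intensities, on a linear scale, that MAS5 made for each probe set, per the submitters' processing notes. The sources used here give neither its version nor its scaling target. The deposited table holds 31099 probe sets, 31042 of them not controls, and 0 columns of no sample. Arrays differed in level (trimmed mean, 2% at each end, 211.2 to 342.4), so the log2(value + 16) values were quantile-normalized. This hides any overall shift between the regions, and the pseudocount understates the change of low genes. Probe sets in the lowest 30% by mean signal (log2 below 5.54) were left out, and 21729 were tested. Names came from the platform annotation, which can be old; the rat gene table (GRCr8) held all 40 member genes under the same symbols.

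Distal minus proximal was fitted with limma 3.58.1 (R 4.3.3; eBayes with an intensity trend, no block, two-sided, Benjamini-Hochberg over all 21729 probe sets), and checked on simulated data. Standard errors and 95% intervals are moderated and, with no block, take the arrays as independent. A gene is represented by its probe set with the highest mean. Rat numbers pair the arrays because both came from 1 animal, per the labels; deviations from region means correlated within rats with r from 0.000945 to 0.569 (above 0.1 in 6 of 9). Python 3.11.15, numpy 2.4.6, pandas 2.3.3 and matplotlib 3.10.9 did the rest. The number of arrays limits the precision.

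Members and gene lists were chosen with earlier results of these data known. Values are given for members past an adjusted p of 0.05 and for the member of each substrate group with the highest mean signal, a choice from which nothing is read about levels, with briefer values for the others, and for up to 4 passing genes of each comparison list, those with the largest differences. Alternatives were the deposited scaling, median centring, pseudocounts of 1 and 64, no filter or 50% left out, rat as a block, no trend, the mean of probe sets, and leaving out arrays or rats. Ucp2, the examples of correlation and the second probe sets were singled out after their values were seen, and Slc25a53 and Slc25a51l1 were put in their substrate group then too.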

Additional observations from a re-analysis of the deposited data

Results flagged for a closer look

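Of 74 groups of 9 arrays (37 genes in 2 regions), 4 held 1 array far from the rest by Dixon's test, where chance flags about 1 in 20 groups. Slc25a4 had 10.69 in the proximal array of rat 3, with the nearest array at 8.62, and that array also had the highest smooth muscle signal. Slc25a37 had 8.54 in the distal array of rat 3, with the nearest at 7.86, and that array was among the 3 of highest smooth muscle signal. Slc25a36 had 9.73 in the proximal array of rat 5, with the nearest at 10.06. Slc25a3 had 13.25 in the distal array of rat 4, with the nearest at 13.11.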

How the results depend on the processing

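Over 20 other settings and 1 more chosen after seeing the data (deposited scaling with rat as a block), the number of SLC25 genes higher in distal colon ran from 2 to 4 (3 as reported) and the number lower in distal colon from 4 to 7 (5 as reported). Among the 20, some settings left out arrays picked from their signals. These were the proximal arrays of rats 3 and 6 and the 3 arrays with most smooth muscle signal. Leaving out 1 rat gave 2 to 4 and 4 to 6. With rat as a replicate block they were 4 and 7, as Slc25a46, Slc25a20 and Slc25a33 passed, and the block changed no other call of a gene's representative probe set. Across 168 values of the 8 genes that passed, 148 kept direction and call, 20 kept the direction but lost the call, and 0 reversed. The losses were 14 for Slc25a13, 5 for Slc25a23 and 1 for Slc25a1. Slc25a24, Slc25a10, Slc25a16, Slc25a36 and Slc25a37 passed in all 21, with highest adjusted p of 7.77e-05, 0.00217, 0.0303, 0.0394 and 0.0184. Signs reversed only for genes that had not passed, among those followed. Without the proximal arrays of rats 3 and 6, Slc25a29 was -0.037. Slc25a39 was -0.0761 with the deposited scaling, with and without the block, -0.0456 with the mean of probe sets and -0.0083 without the 3 arrays of highest smooth muscle signal. Slc25a46 was -0.0915 with the mean of probe sets, and Slc25a30 was -0.0312 with the deposited scaling, with and without the block. With the mean of probe sets Slc25a30 passed (0.28, adjusted p = 0.0218). Over all genes, 3510 passed, and 2003 with the deposited scaling; the cause was not tested. Signals near the filter level, such as those of Slc25a27, Slc25a32, Slc25a41, Slc25a45 and Slc25a48, limit what can be detected.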
